A study of Mus musculus with 10 samples.

Results

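The potassium channel genes were all genes whose symbol starts with Kcn, with Kcnj10 left out, that had a probe set paired with that gene alone. Where a gene had several such probe sets the brightest stood for it, and a gene counted as a member if its log2 level exceeded 4.32 (an intensity of 20) on 3 or more of the 8 single arrays. Of 86 such Kcn genes 66 passed and 20 did not, among 12978 genes tested in all. Levels were measured in the hypothalamus of male CDF1 mice, a cross of BALB/c and DBA/2, at 10 to 11 weeks of age, on whole-transcript oligonucleotide arrays. The 3 control mice had received 0.2 ml of Hanks' balanced salt solution under the skin of the flank. In the 5 tumour-bearing mice the same volume held 1000000 cells of C26, a colon adenocarcinoma, and tissue was taken on day 20 in both groups. C26 is a transplanted mouse tumour line known for causing wasting in its host, and every tumour-bearing mouse carried this 1 line. A further array per group held pooled RNA, of 4 animals for the controls and 5 for the tumour-bearing group. Whether the pooled animals include the single ones is not stated, so pool values are given beside the single arrays and enter only an alternative fit.

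Potassium channels let potassium leave or enter a cell along its gradient, set the resting potential of neurons and glia, and end or shape action potentials. Voltage-gated channels open on depolarisation, inward rectifiers pass current best near rest, tandem pore-domain channels carry leak current, and another class opens on intracellular calcium or sodium. In the hypothalamus they are known to couple firing of feeding and neuroendocrine neurons to transmitters, peptides and glucose, for example through G protein-gated and ATP-sensitive inward rectifiers.

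The labelled tissue matched its markers. All 18 hypothalamic markers with a probe set lay above the level filter, and Hcrt, the orexin precursor, ranged from 10.54 to 10.87 in the single mice. Of the 18, 8 were higher in tumour-bearing mice at an unadjusted p under 0.05, and their score was -0.21 to -0.11 in controls and -0.08 to 0.25 in tumour-bearing mice. No gene of any marker list passed the adjusted threshold in limma. The tissue pieces were not alike in other respects. The score of midbrain dopamine markers (mean centred log2 level of 12 of 14 listed genes) was 0.30 to 0.55 in controls and -0.89 to 0.33 in tumour-bearing mice, and 10 of the 12 were lower at an unadjusted p under 0.05. The score of 8 oligodendrocyte markers, of which 7 were lower at that p, was 0.28 to 0.36 in controls and -0.54 to 0.22 in tumour-bearing mice. In both scores tumour-bearing mouse 2 was the nearest to the controls. Tumour-bearing mice 3 and 4 stood apart by pituitary transcripts, with Gh at 10.45 and 10.48 against 4.21 to 5.51 in the other single mice. Serotonin markers split the controls. Slc6a4 was at 3.78, 6.45 and 5.93 in controls 1, 2 and 3 and at 3.56 to 4.34 in tumour-bearing mice. Tph2, under the level filter, was at 3.19, 5.99 and 5.13 in controls and at 3.00 to 3.67 in tumour-bearing mice. In bulk tissue, fewer cells of a type and less RNA per cell cannot be told apart, and the part of tissue composition in the results below was not tested beyond the values given beside them.

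**Figure D1:**
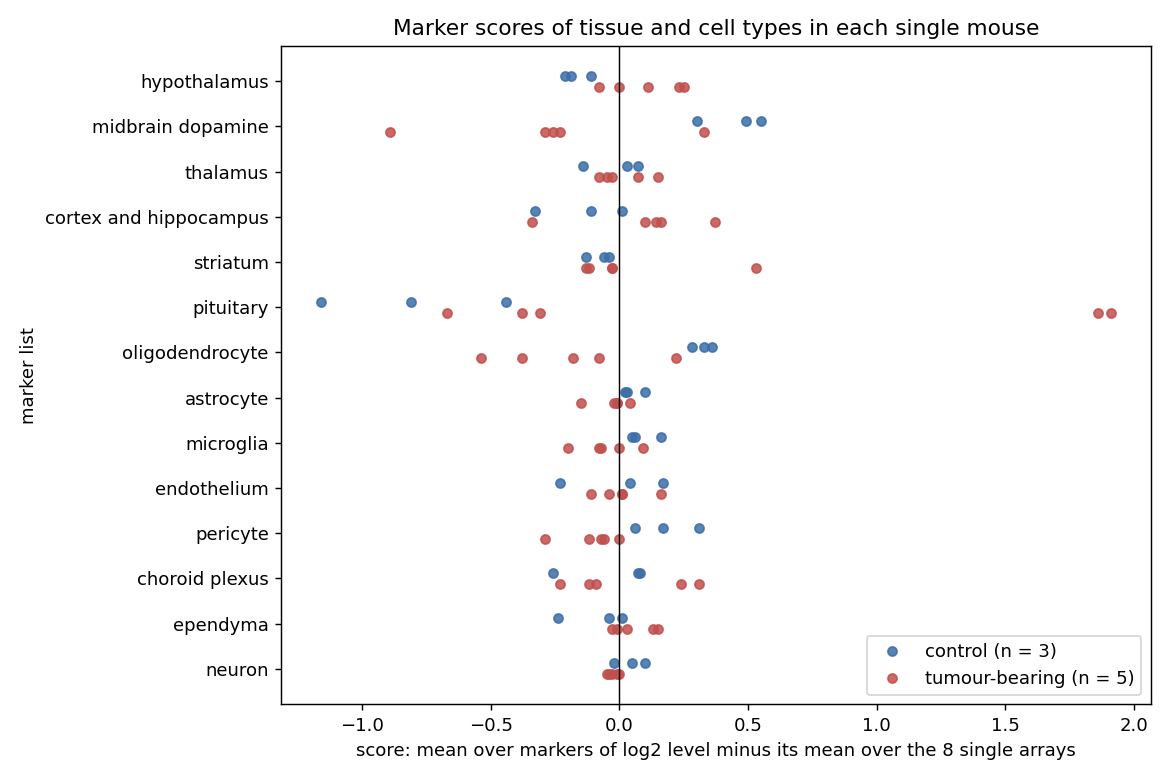
Marker scores in each single mouse, in log2 units, for the tissue and cell type lists with at least 3 markers above the level filter; a point is 1 mouse, blue for the 3 controls and red for the 5 tumour-bearing mice. Midbrain dopamine markers spread from -0.89 to 0.55, and the pituitary score lay at 1.91 and 1.86 in 2 tumour-bearing mice.

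No potassium channel gene passed the adjusted threshold in tumour-bearing mice. The smallest adjusted p among the 66 members was 0.251 (limma, Benjamini-Hochberg over all probe sets tested), and 0.0771% of all tested genes were called. At an unadjusted p under 0.05, 4 members were lower (Kcnip3, Kcng4, Kcna2 and Kcnj16) and 3 were higher (Kcnip1, Kcnf1 and Kcnh1). These are 6.06% and 4.55% of the members, against 6.51% lower and 3.78% higher of all tested genes, so the shares lay near the background. The groups did not overlap for 4 members that were lower (Kcnip3, Kcna4, Kcnj6 and Kcnk10; 5.19% of all genes) and for 3 that were higher (Kcnip1, Kcnf1 and Kcnh1; 3.11% of all genes). The median difference, tumour-bearing minus control, was -0.029 on the log2 scale over the members and -0.01 over all genes, and 59.1% of members against 54.5% of all genes lay below 0. Single mice moved these numbers. Without tumour-bearing mouse 2, Kcnip3 passed (limma adjusted p = 0.0483, against 0.0483 to 0.916 over all alternatives), in a fit that called 53 of the 12978 genes in place of 10. In that fit 9 members (13.6%) were lower without overlap, against 8.24% of all genes. Without control 1, 9 members (13.6%) were lower and 5 (7.58%) higher at the unadjusted p, against 7.20% and 3.94% of all genes. Those without overlap then numbered 12 (18.2%) and 6 (9.09%), against 12.0% and 7.12% of all genes. Without control 2, 8 members (12.1%) were lower without overlap, against 8.33% of all genes. Without control 3, 6 (9.09%) were higher, against 6.16%. Leaving out control 2 gave a median of -0.0137, and leaving out tumour-bearing mouse 4 gave -0.0056.

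**Figure D2:**
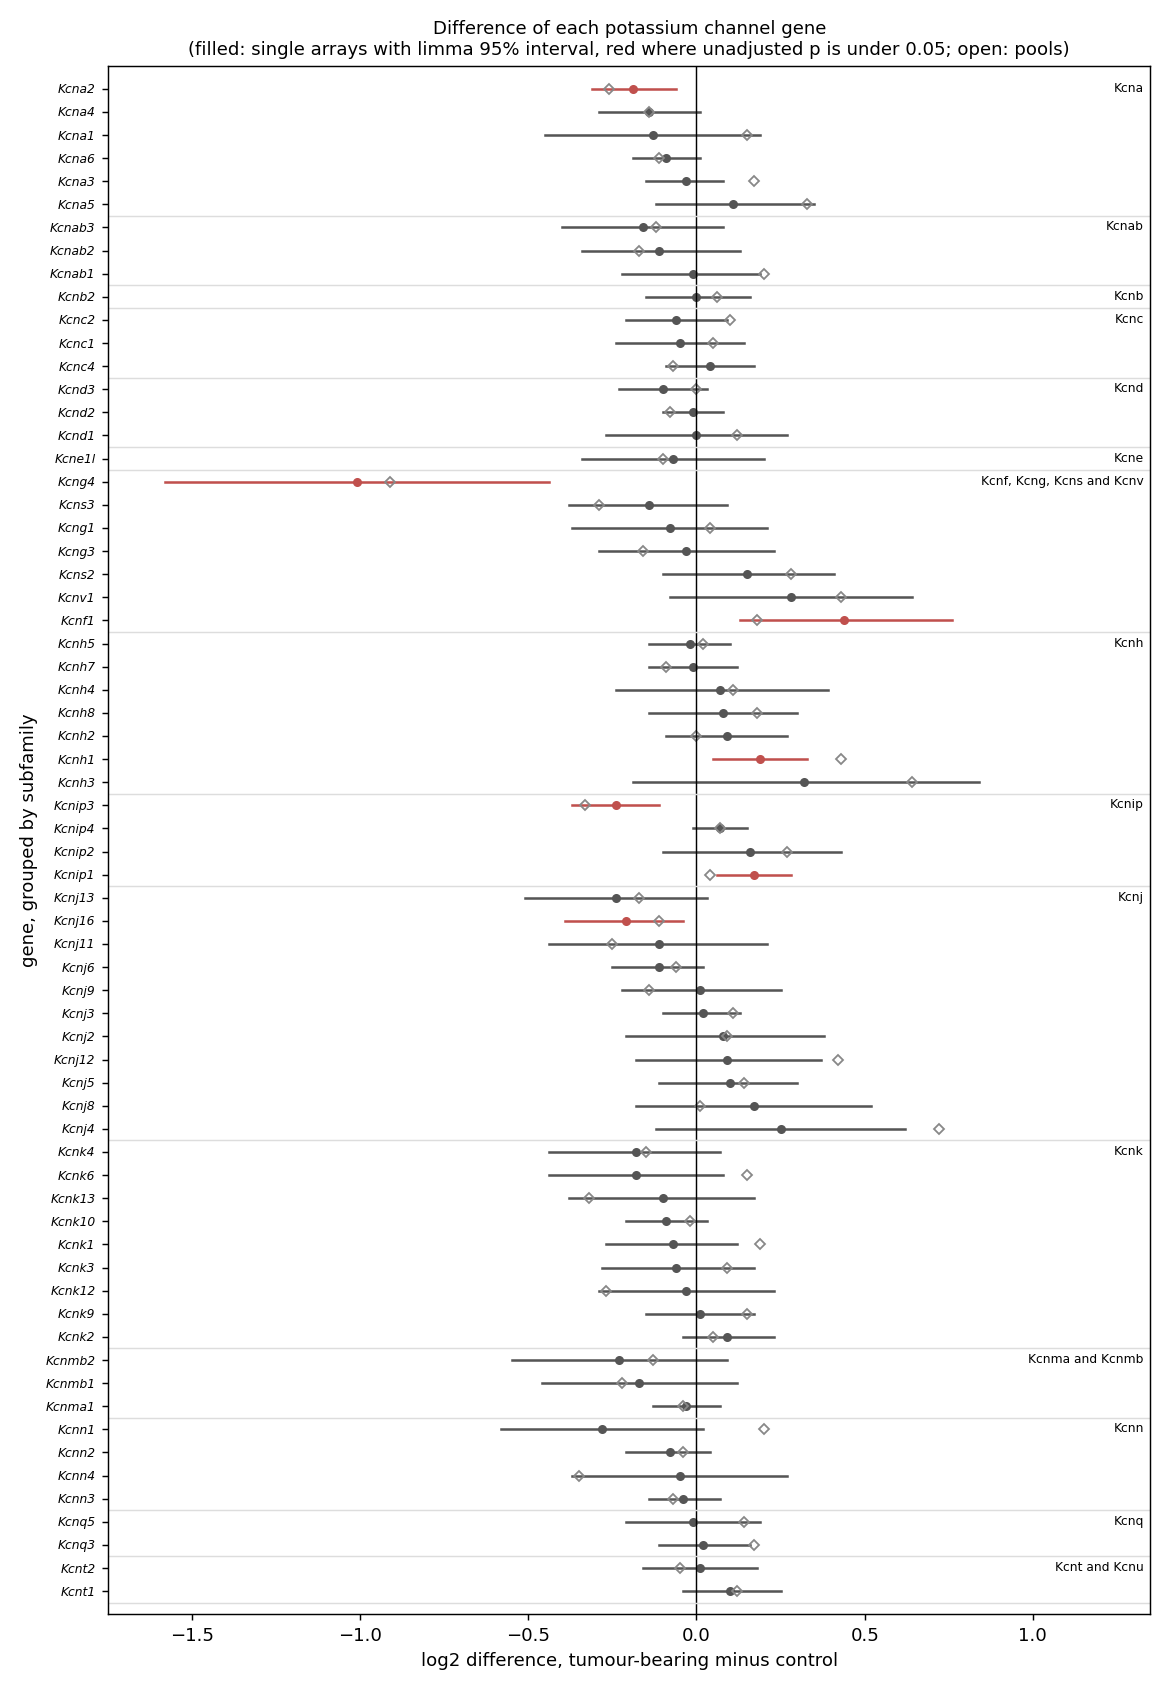
Log2 difference of each of the 66 potassium channel genes, tumour-bearing minus control, by subfamily. Filled points are the 5 against 3 single mice with the limma 95% interval, red where the unadjusted p is under 0.05; open diamonds are the difference between the 2 pools. Most points lie within 0.25 of 0. Kcng4, a member only through the group where it was high, stands at -1.01 with the pools at -0.91. The pools may hold the same mice.

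The spread between mice limits what these arrays could show. The median half-width of the 95% interval of a difference was 0.214, and the median within-group SD was 0.137 for members against 0.0989 for all tested genes. For 24 of 66 members the interval lay wholly within 0.25 of 0 on the log2 scale, and for 65 it lay within 1 of 0. Kcng4 was the exception.

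The KChIP genes encode small calcium-binding proteins that bind the N terminus of Kcnd channels and set their surface expression and inactivation. Of 4 members 1 was lower and 1 higher at the unadjusted p. Kcnip3, also known as DREAM and calsenilin, a repressor of transcription as well as a channel subunit, was at 9.73, 9.70 and 9.77 in controls 1, 2 and 3 and at 9.40, 9.67, 9.50, 9.50 and 9.41 in tumour-bearing mice 1 to 5. All tumour-bearing mice lay below all controls, with mouse 2 closest to them. The difference was -0.24 ± 0.06 SE (1.18-fold lower; unadjusted p = 0.00251, limma adjusted p = 0.251), the pools differed by -0.33, and with the midbrain score as a covariate the difference was -0.15. Kcnip1 went the other way, at 8.64, 8.67 and 8.63 in controls and 8.76, 8.72, 8.88, 8.83 and 8.90 in tumour-bearing mice. The controls agreed within 0.04 and every tumour-bearing mouse was above them, but the control pool, at 8.95, was above every single array and the tumour-bearing pool was at 8.99. The difference was 0.17 ± 0.05 SE (1.13-fold; unadjusted p = 0.00569, limma adjusted p = 0.292), 0.08 with the midbrain covariate, and 0.13 with the pools as samples (unadjusted p = 0.111, limma adjusted p = 0.719). Kcnip4 differed by 0.07 (95% interval -0.01 to 0.15) and Kcnip2 by 0.16 (-0.10 to 0.43).

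The Kcnd genes encode the A-type channels that KChIPs bind, which delay firing. Kcnd2 was at 9.79 to 9.92 in controls and 9.81 to 9.92 in tumour-bearing mice, and its difference of -0.01 had a 95% interval of -0.10 to 0.08. Kcnd1 differed by 0.00 (-0.27 to 0.27). Kcnd3, at 8.45 to 8.49 in controls and 8.25 to 8.52 in tumour-bearing mice, differed by -0.10 ± 0.06 SE by its brighter probe set and by 0.14 ± 0.16 SE by a dimmer one, so its probe sets differ in sign.

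The electrically silent subunits of the Kcnf, Kcng, Kcns and Kcnv groups form no channel alone and modify Kcnb channels when they assemble with them. Their 7 members held the lowest and the highest difference of the family. Kcng4 was at 4.80, 5.66 and 5.60 in controls and at 4.37, 4.95, 4.19, 4.12 and 4.07 in tumour-bearing mice. Tumour-bearing mouse 2 lay above control 1, so the groups overlapped, and the other 4 lay below all controls. The difference was -1.01 ± 0.25 SE (2.02-fold lower on the deposited scale; unadjusted p = 0.00285, limma adjusted p = 0.261). Kcng4 passed the level filter on 5 arrays, all 3 controls and 2 tumour-bearing mice, so it is a member only through the group where it was high, and its p and its place among the lower members are no support for a difference. Over the 64 members above the filter level on all 8 arrays, 3 (4.69%) were lower at the unadjusted p, against 6.62% of all genes so filtered. As 3 tumour-bearing mice were under the filter level of 4.32, the size is uncertain, and with such values raised to that level the difference was -0.90. It was -0.47 with the midbrain covariate. Kcnf1 was at 4.80, 5.28 and 5.30 in controls and at 5.79, 5.44, 5.47, 5.48 and 5.65 in tumour-bearing mice. All single tumour-bearing mice were above all single controls, and control 1 was far below the other controls. The control pool, at 5.46, was above all single controls and above tumour-bearing mouse 2. The difference was 0.44 ± 0.14 SE (1.36-fold; unadjusted p = 0.0107, limma adjusted p = 0.329), 0.28 without control 1 and 0.18 between the pools. Kcnv1, Kcns2, Kcng3, Kcng1 and Kcns3 differed by 0.28, 0.15, -0.03, -0.08 and -0.14, each with an interval across 0. Kcnb2, the Kcnb member, which carries delayed rectifier current, was at 7.58 to 7.80 in controls and 7.54 to 7.77 in tumour-bearing mice and differed by 0.00 (-0.15 to 0.16).

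Of the 7 members with an unadjusted p under 0.05, 4 have a single annotated start site, and the 250 bases before it are shown to set the lower (Kcng4, Kcna2) beside the higher (Kcnf1, Kcnh1). The sequences are from RefSeq on GRCm38.p6, 5′ to 3′ on the gene's strand, with CG dinucleotides in capitals.
Kcng4 (chr8:119635681-119635930, minus strand): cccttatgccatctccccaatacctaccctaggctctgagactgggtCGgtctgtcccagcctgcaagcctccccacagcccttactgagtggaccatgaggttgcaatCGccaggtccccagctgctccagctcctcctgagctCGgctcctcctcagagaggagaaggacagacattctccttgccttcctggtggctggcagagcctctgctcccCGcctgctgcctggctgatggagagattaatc
Kcna2 (chr3:107101317-107101566, plus strand): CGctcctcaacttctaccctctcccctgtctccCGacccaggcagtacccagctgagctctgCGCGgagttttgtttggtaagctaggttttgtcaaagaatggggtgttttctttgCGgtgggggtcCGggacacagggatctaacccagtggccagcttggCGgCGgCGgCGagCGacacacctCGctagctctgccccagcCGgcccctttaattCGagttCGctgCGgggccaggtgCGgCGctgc
Kcnf1 (chr12:17176889-17177138, minus strand): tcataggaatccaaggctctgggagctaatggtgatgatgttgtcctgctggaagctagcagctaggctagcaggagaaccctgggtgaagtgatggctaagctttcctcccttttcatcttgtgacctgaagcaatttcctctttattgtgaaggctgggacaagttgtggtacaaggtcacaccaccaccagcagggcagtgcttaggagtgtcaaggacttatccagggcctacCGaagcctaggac
Kcnh1 (chr1:192190527-192190776, plus strand): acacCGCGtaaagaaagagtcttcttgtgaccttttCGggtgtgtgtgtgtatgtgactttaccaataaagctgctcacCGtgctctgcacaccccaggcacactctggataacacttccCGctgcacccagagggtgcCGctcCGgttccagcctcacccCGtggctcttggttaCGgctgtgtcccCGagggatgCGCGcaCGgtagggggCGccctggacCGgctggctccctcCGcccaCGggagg
CG dinucleotides numbered 4 for Kcng4 and 18 for Kcna2, and 1 for Kcnf1 and 17 for Kcnh1. Among these 4, each direction held a CG-rich and a CG-poor promoter, but the place of Kcng4 among the lower is no support for a difference. The median was 7.5 over the 74 promoters found for 51 of the 66 members and 6 over 32851 promoters of all genes. A GC box (GGGCGG, either strand) was present in the Kcnh1 window alone of the 4, in 44.6% of member promoters and in 32.7% of all. These counts describe the windows only; array values do not tell which start site was used.

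Kcna genes encode low-threshold delayed rectifier and A-type channels of axons, and Kcnab genes their cytoplasmic beta subunits. Of 6 Kcna members 5 had a difference below 0, and all 3 Kcnab members did, with 1 of the 9 past the unadjusted p. Kcna2, an axonal subunit found beside nodes of Ranvier, was at 9.39, 9.52 and 9.54 in controls and at 9.26, 9.42, 9.23, 9.35 and 9.25 in tumour-bearing mice. Tumour-bearing mouse 2 lay above control 1 and the others lay below all controls. The difference was -0.19 ± 0.06 SE (unadjusted p = 0.00831, limma adjusted p = 0.306), -0.26 between the pools and -0.06 with the midbrain covariate. Kcna4, an A-type subunit, was at 7.29, 7.21 and 7.34 in controls and at 7.20, 7.19, 7.18, 6.97 and 7.13 in tumour-bearing mice. The groups did not overlap, with control 2 and tumour-bearing mouse 1 nearest to each other, and the difference was -0.14 ± 0.07 SE (unadjusted p = 0.0577, limma adjusted p = 0.494). Kcna6 differed by -0.09 (95% interval -0.19 to 0.01) and Kcna3 by -0.03 (-0.15 to 0.08). Kcna1, which joins Kcna2 in axonal channels, spread from 7.97 in tumour-bearing mouse 3 to 8.72 in mouse 1, more than the controls' 8.27 to 8.56, and differed by -0.13 (-0.45 to 0.19). Kcna5 differed by 0.11. Among the beta subunits Kcnab3, at 6.43 to 6.76 in controls and 6.32 to 6.64 in tumour-bearing mice, differed by -0.16 (-0.40 to 0.08). Kcnab2 was at 8.75 to 9.16 in controls and 8.73 to 9.05 in tumour-bearing mice and differed by -0.11. Kcnab1 was at 7.76 to 7.85 in controls and 7.67 to 8.09 in tumour-bearing mice and differed by -0.01, and its high value in tumour-bearing mouse 1 widened that group.

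Kcnc genes encode the fast channels that let interneurons and brainstem neurons fire at high rates. Kcnc2, at 8.00 to 8.21 in controls and 7.86 to 8.09 in tumour-bearing mice, differed by -0.06 (95% interval -0.21 to 0.09), Kcnc1 by -0.05 (-0.24 to 0.14) and Kcnc4 by 0.04 (-0.09 to 0.17). Kcnc1 showed how far control 1 could carry a value: it was at 7.73 there, against 8.14 and 8.08 in the other controls and 7.91 to 8.00 in tumour-bearing mice, and without control 1 the difference was -0.17 (unadjusted p = 0.00525, limma adjusted p = 0.275). Control 1 was also the lowest control for Kcnab2, Kcnk4, Kcnab3, Kcna6 and Kcnn1 (8.75, 6.23, 6.43, 7.73 and 5.37). It was the highest control for Kcnip2 and Kcnv1 (7.06 and 6.71). For each of these genes the unadjusted limma p was under 0.05 without control 1 and not in the main fit. The serotonin markers Slc6a4 and Tph2 were lowest of the controls in control 1, and the part of tissue composition in these values was not tested.

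The Kcnh genes encode the ether-a-go-go, ERG and ELK channels, which act at subthreshold voltages. Of 7 members 5 had a difference above 0 and 1 passed the unadjusted p. Kcnh1, the ether-a-go-go subunit, was at 8.20, 8.16 and 8.11 in controls and at 8.45, 8.26, 8.29, 8.27 and 8.48 in tumour-bearing mice. All tumour-bearing mice were above all controls, mice 1 and 5 most, and the pools, at 8.05 and 8.49, lay outside the single arrays of their groups in the same direction. The difference was 0.19 ± 0.06 SE (1.14-fold; unadjusted p = 0.0122, limma adjusted p = 0.344), and 0.18 ± 0.10 SE with the midbrain covariate (limma adjusted p = 0.916). Kcnh3 differed by 0.32 ± 0.23 SE, Kcnh8 by 0.08 and Kcnh4 by 0.07. Kcnh2, the ERG subunit, was at 7.10 to 7.42 in controls and 7.33 to 7.47 in tumour-bearing mice and differed by 0.09. Kcnh5 (95% interval -0.14 to 0.10) and Kcnh7 (-0.14 to 0.12) differed by -0.02 and -0.01, with Kcnh7 at 7.53 to 7.66 in controls and 7.49 to 7.67 in tumour-bearing mice. The Kcnq genes encode M-current channels, which muscarinic and peptide receptors close. Kcnq3 was at 8.02 to 8.14 in controls and 7.98 to 8.20 in tumour-bearing mice, a difference of 0.02 (-0.11 to 0.16). Kcnq5 was at 7.73 to 7.97 in controls and 7.67 to 7.99 in tumour-bearing mice, a difference of -0.01 (-0.21 to 0.19).

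**Figure D3:**
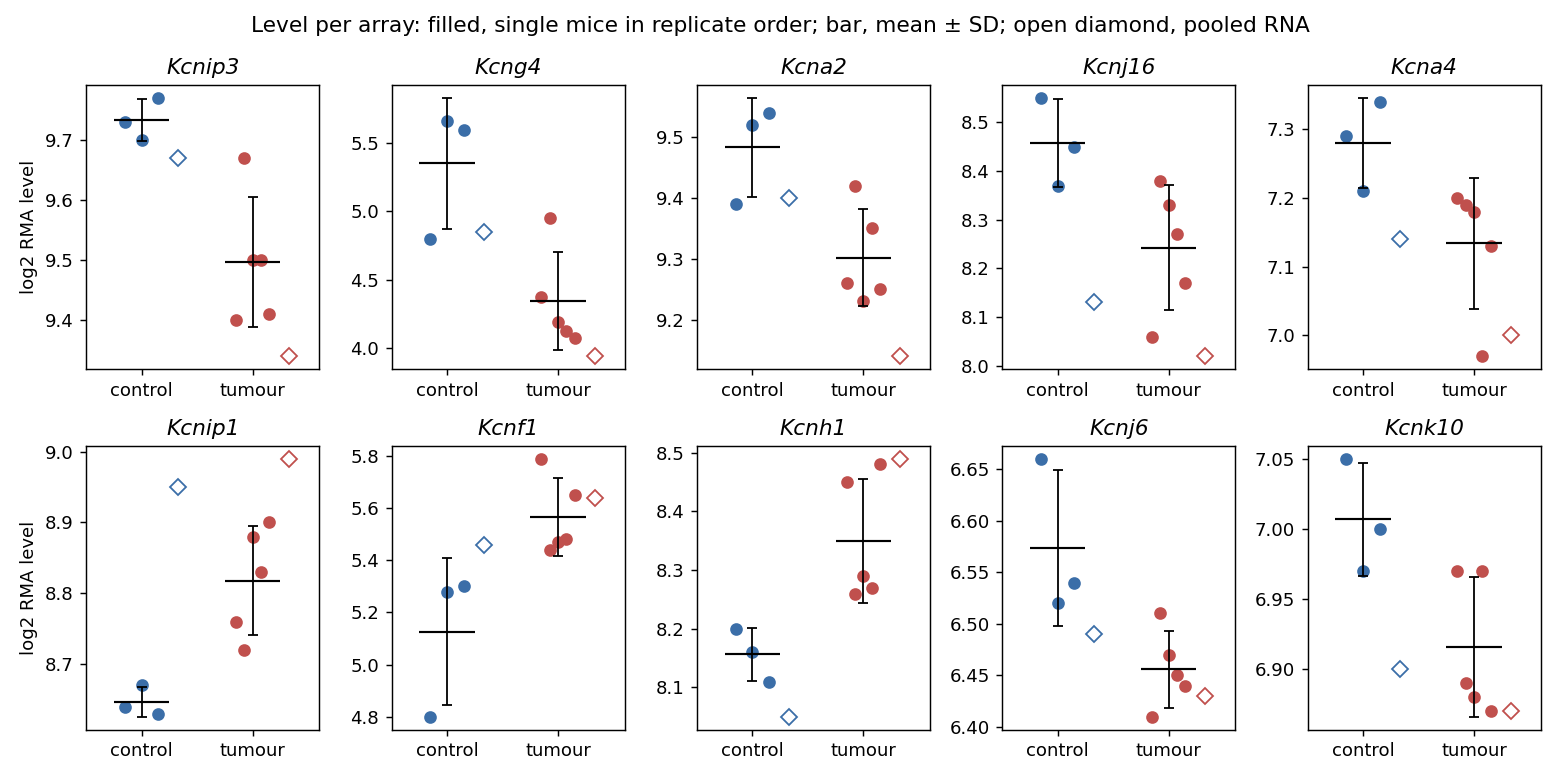
Log2 RMA level on each array for the 7 members with an unadjusted p under 0.05 and the further 3 whose groups do not overlap. Filled points are single mice (3 controls in blue, 5 tumour-bearing in red), bars are mean ± SD, open diamonds the pools; each panel has its own level axis, which does not start at 0. Tumour-bearing mouse 2 is the highest tumour-bearing mouse for Kcnip3, Kcng4, Kcna2, Kcnj16 and Kcnj6.

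The 7 calcium-activated channel members had measured differences below 0, none past the unadjusted p. That of Kcnn4 was 0.01 once levels under the filter level were raised to it. Kcnma1, the large-conductance channel that ends action potentials and limits hormone release, was at 8.78 to 8.86 in controls and 8.70 to 8.87 in tumour-bearing mice, a difference of -0.03 (95% interval -0.13 to 0.07). Of its beta subunits, Kcnmb2 was at 5.58 to 6.16 in controls and 5.42 to 5.72 in tumour-bearing mice. Kcnmb1 and Kcnmb2 differed by -0.17 (-0.46 to 0.12) and -0.23 (-0.55 to 0.09). Kcnmb1, whose span overlaps that of Kcnip1 on chromosome 11 in RefSeq, differed in the other direction from Kcnip1. Of the small-conductance channels, known for the medium afterhyperpolarisation, Kcnn1 was at 5.37, 5.52 and 5.75 in controls and at 5.41, 5.07, 5.50, 5.25 and 5.12 in tumour-bearing mice. The groups overlapped, and the difference was -0.28 ± 0.13 SE (unadjusted p = 0.065, limma adjusted p = 0.509); the pools differed by 0.20. Kcnn2 was at 7.29 to 7.44 in controls and 7.20 to 7.35 in tumour-bearing mice and differed by -0.08 (-0.21 to 0.04). Kcnn3 was at 8.36 to 8.41 in controls and 8.23 to 8.39 in tumour-bearing mice and differed by -0.04 (-0.14 to 0.07). Kcnn4, the intermediate-conductance channel of glia and blood cells, was above the filter level on 3 arrays only, at 4.01 to 4.49, and differed by -0.05 (-0.37 to 0.27). Of the sodium-activated channels, Kcnt1, at 8.40 to 8.71 in controls and 8.58 to 8.71 in tumour-bearing mice, differed by 0.10 (-0.04 to 0.25) and Kcnt2 by 0.01 (-0.16 to 0.18).

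The inward rectifiers were the largest subfamily, with 11 members, 7 of them above 0. Kcnj16, a pH-sensitive subunit of astrocytes and other glia, was at 8.55, 8.37 and 8.45 in controls and at 8.06, 8.38, 8.33, 8.27 and 8.17 in tumour-bearing mice. Only tumour-bearing mouse 2 reached the control range. The difference was -0.21 ± 0.08 SE (unadjusted p = 0.0204, limma adjusted p = 0.393). The unadjusted limma p was no longer under 0.05 in some fits. It was 0.118 with the midbrain covariate (-0.21) and 0.117 with the replicate block (-0.20). It was 0.0878 without control 1 (-0.17) and 0.0978 with the pools as samples (-0.17). In the pools Kcnj16 was at 8.13 and 8.02, both below all single controls. Of 8 astrocyte markers tested, 2 were lower at the unadjusted p (Aqp4, -0.51, and S100b, -0.26) and 1 was higher (Slc1a3, 0.13). The astrocyte score was 0.02 to 0.10 in controls and -0.15 to 0.04 in tumour-bearing mice. Of 8 oligodendrocyte markers 7 were lower at that p. The part of glial cells in the Kcnj16 difference was not tested. Kcnj2, the next coding gene to Kcnj16 on chromosome 11, differed by 0.08.

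The G protein-gated subunits, through which opioid, GABA and neuropeptide Y receptors silence neurons, gave small differences. Kcnj6 was at 6.66, 6.52 and 6.54 in controls and at 6.41, 6.51, 6.47, 6.45 and 6.44 in tumour-bearing mice. The groups did not overlap, with control 2 and tumour-bearing mouse 2 nearest to each other, and the difference was -0.11 ± 0.06 SE (unadjusted p = 0.0938, limma adjusted p = 0.556). Kcnj3, a subunit of most neuronal channels of this kind, was at 8.10 to 8.15 in controls and 8.04 to 8.25 in tumour-bearing mice and differed by 0.02 (95% interval -0.10 to 0.13). Kcnj9 was at 6.51 to 6.89 in controls and 6.51 to 6.86 in tumour-bearing mice and differed by 0.01 (-0.22 to 0.25). Kcnj5 differed by 0.10 (-0.11 to 0.30). The pore subunits of ATP-sensitive channels, which link glucose metabolism to firing, were Kcnj11, at 5.42, 5.42 and 5.60 in controls and 5.13 to 5.74 in tumour-bearing mice, and Kcnj8, at 4.73, 5.46 and 5.37 in controls and 5.31 to 5.43 in tumour-bearing mice. Their differences were -0.11 (-0.44 to 0.21) and 0.17 (-0.18 to 0.52), and Kcnj8 was -0.06 without control 1. Their sulphonylurea receptor partners Abcc8 and Abcc9 differed by 0.04 and -0.04. Kcnj13, a channel of choroid plexus and retinal epithelium, differed by -0.24 (-0.51 to 0.03), where the choroid plexus score was -0.26 to 0.08 in controls and -0.23 to 0.31 in tumour-bearing mice. Kcnj12 differed by 0.09 and Kcnj4 by 0.25, both with intervals across 0.

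The tandem pore-domain genes carry the leak current that volatile anaesthetics, pH and lipids regulate. Of 9 members 7 lay below 0 and none passed the unadjusted p. Kcnk10 was at 7.05, 6.97 and 7.00 in controls and at 6.97, 6.89, 6.88, 6.97 and 6.87 in tumour-bearing mice. The groups were separate only beyond the second decimal, and the difference was -0.09 ± 0.05 SE (unadjusted p = 0.12, limma adjusted p = 0.598). Kcnk9, an acid-sensitive leak channel, was at 9.47 to 9.72 in controls and 9.46 to 9.74 in tumour-bearing mice and differed by 0.01 (95% interval -0.15 to 0.17). Its relative Kcnk3 was at 6.20 to 6.55 in controls and 6.15 to 6.44 in tumour-bearing mice and differed by -0.06 (-0.28 to 0.17). Kcnk2, a channel gated by stretch and arachidonic acid, was at 7.16 to 7.19 in controls and 7.13 to 7.34 in tumour-bearing mice and differed by 0.09 (-0.04 to 0.23). All 3 intervals crossed 0. Kcnk1 was at 8.43 to 8.68 in controls and 8.31 to 8.68 in tumour-bearing mice and differed by -0.07. Kcnk4 differed by -0.18, Kcnk6 by -0.18, Kcnk12 by -0.03 and Kcnk13 by -0.10. Kcne1l, a single-span accessory subunit, was at 5.51 to 5.88 in controls and 5.47 to 5.83 in tumour-bearing mice, differed by -0.07 and was the only Kcne gene above the filter. The other Kcne genes with a probe set, Kcne1, Kcne2, Kcne3 and Kcne4, were at 2.70 to 3.64 on the single arrays.

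The level filter set the edge of the family at Kcnn4, above it on 3 arrays, and Kcnmb4, a neuronal beta subunit of the large-conductance channel, above it on 2 arrays with levels of 3.80 to 4.49. Kcnq1 and Kcnrg passed on 1 array each, and the other 17 genes left out passed on none of the 8.

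**Figure D4:**
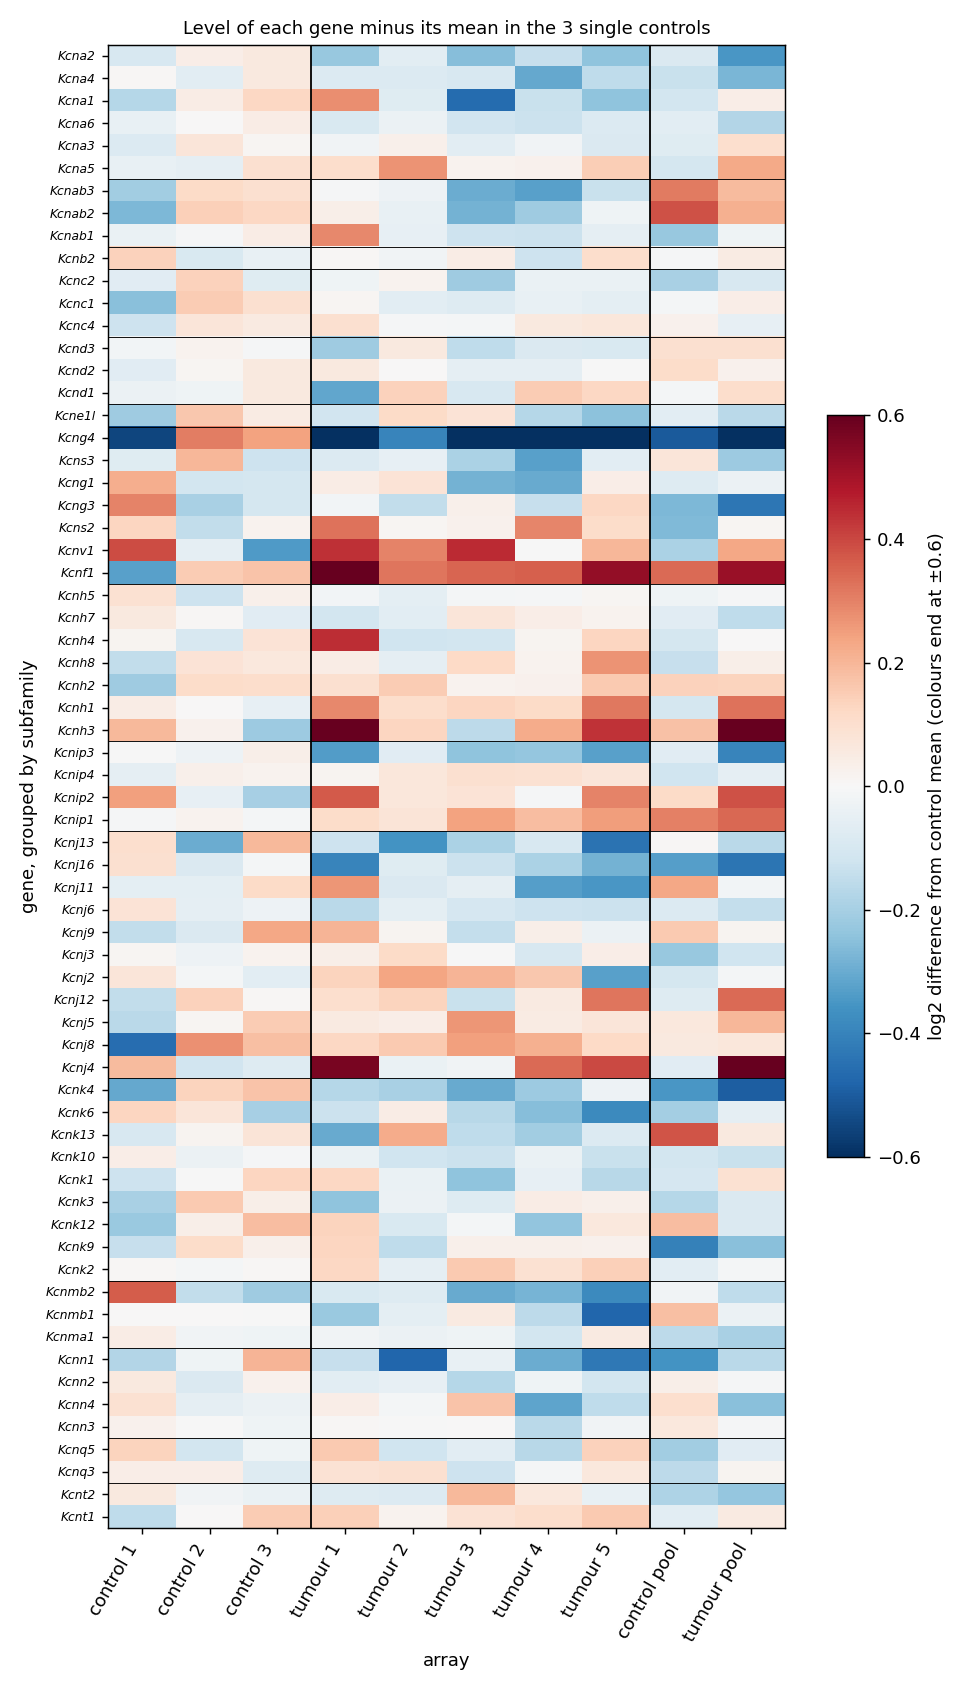
Log2 level of each of the 66 genes minus its mean in the 3 single controls, by array (single controls, single tumour-bearing mice, pools) and subfamily; colours end at ±0.6. Kcng4 is blue in all 5 tumour-bearing mice and both pools, and Kcnf1 is red in them, while Kcnh3 and Kcnj4 are darkest in tumour-bearing mouse 1 and the tumour-bearing pool.

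Across arrays, no mouse was high or low for the whole family: the median of the members' levels minus the control means ran from -0.06 in tumour-bearing mouse 3 to 0.027 in control 3. Tumour-bearing mouse 1 held the highest single value for 13 of the 66 members, and control 1 and tumour-bearing mouse 4 the lowest for 13 each. Tumour-bearing mouse 1 was also lowest for 8, control 1 highest for 11 and tumour-bearing mouse 4 highest for 1. The same counts over all genes are not given here. A few members, picked here after their values were seen, were high in tumour-bearing mouse 1. Kcnh3, an ELK channel of forebrain neurons, was at 6.18 there against 4.97 to 5.62 in the other single mice. Kcnj4, an inward rectifier of forebrain neurons, was at 5.30 against 4.62 to 5.13. Kcnh4 was at 5.61 against 5.05 to 5.29. In the same mouse the score of 5 striatal markers was 0.53, against -0.13 to -0.03 in the other 7. Of the 5, Ppp1r1b, the striatal phosphoprotein DARPP-32, was at 7.47 against 5.53 to 5.86, Drd1 at 5.81 against 4.94 to 5.33 and Rgs9 at 8.73 against 8.13 to 8.56. Drd2, at 7.25, and Tac1, at 8.89, lay within the range of the other mice. The cortex and hippocampus score (4 markers) was also highest in that mouse, at 0.37 against -0.34 to 0.16. In the pools the striatal score was 0.20 in the control and 0.66 in the tumour-bearing pool. Kcnh3 was at 5.37 and 6.01 in these pools, Kcnj4 at 4.66 and 5.38, and Kcnh4 at 5.06 and 5.17. The part of striatal or cortical tissue in these values was not tested.

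For each of the 4 members that were lower at the unadjusted p, tumour-bearing mouse 2 was the highest tumour-bearing mouse. It was also the highest of its group for the midbrain and oligodendrocyte scores. The 4 were picked by their p, and Kcng4 is a member only through the group where it was high. The share of all genes with that mouse highest was not counted, and a link to the scores was not tested. As that mouse was the highest of its group for each, leaving it out could only lower their differences, whatever the cause. Without it Kcnip3 differed by -0.28, Kcng4 by -1.16, Kcna2 by -0.22 and Kcnj16 by -0.25. With the midbrain score as a covariate, 1 member was lower (Kcnn1, -0.49) and 0 were higher at the unadjusted p, where 2.00% of all genes were lower and 1.90% higher. The score differed between the groups, so their parts cannot be told apart in that fit.

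Of 21 listed partners of potassium channels and related pacemaker genes, 18 passed the filter, 0 passed the adjusted threshold, and 4 (22.2%) were lower and 0 higher at the unadjusted p, against 6.51% and 3.78% of all genes, with a median difference of 0.015 against -0.01 for all genes. The 4 were Hcn2, a pacemaker cation channel (-0.40 ± 0.14 SE, limma adjusted p = 0.363), Pex5l, an auxiliary subunit of such channels (-0.30 ± 0.11 SE, limma adjusted p = 0.389), Cntn2, an adhesion molecule that clusters Kcna channels beside nodes (-0.22 ± 0.09 SE, limma adjusted p = 0.437), and Lrrc55, a gamma subunit of the large-conductance channel (-0.13 ± 0.05 SE, limma adjusted p = 0.393). Hcn2 was at 8.25, 8.80 and 8.88 in controls and 8.06 to 8.39 in tumour-bearing mice, so control 1 lay among the tumour-bearing mice. The A-type partners Dpp6 and Dpp10 differed by 0.01 and 0.06, the Kcnb partner Amigo1 by 0.06, and Cntnap2, the partner of Cntn2, by 0.08.

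In the pools 31 of 66 members were lower in the tumour-bearing pool, with a median difference of 0.03. The 7 members with an unadjusted p under 0.05, Kcng4 among them, had the same sign in the pools as in the single mice. They ran from -0.91 for Kcng4 to 0.43 for Kcnh1, with Kcnip1 at 0.04. The share of all genes with the same sign was not counted, and the pools may hold the same mice, so the match is no support. The pool differences have no replicate.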

How the data were processed

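The values are log2 expression levels per probe set that the authors made with RMA and deposited, per the submitters' processing notes; its version and the probe set definition are not stated in the sources used here. Because RMA equalises the arrays' distributions, a change common to most transcripts would not show, and folds are compressed; the number of arrays limits precision. Array medians were 5.30 to 5.32 in the 8 single arrays, and their correlations 0.980 to 0.989. Genes came from a platform annotation that pairs 21218 of 35556 probe sets with 1 gene; all 86 symbols matched the RefSeq table of GRCm38.p6 by Entrez number.

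Probe sets above 20 (linear) on 3 or more of 8 single arrays, 22837 in all, were fitted with limma 3.58.1 in R 4.3.3 (lmFit, eBayes with trend), tumour-bearing minus control, with Benjamini-Hochberg adjustment over all of them at a threshold of 0.05; ± SE and 95% intervals are the fit's. The labels name the samples individual mice; 0 columns were left out. Named in full are members with an unadjusted p under 0.05 or no overlap; a fixed set of 33 well-known genes, of which 28 were members, and the smallest p of each subfamily are described whatever their result, by their range. Members and lists were chosen with earlier results of these data known. The fit was tested on data simulated from each probe set's mean and residual SD, with 200 probe sets changed. It recovered 49.5% of changes of 0.5 on the log2 scale, with 5 false calls, and 86.0% of changes of 1, with 15. Changes smaller than 0.5, the size of most differences here, were not simulated. Alternatives were the filter, variance model, array weights, quantile normalization, replicate block, pools as samples, mean of probe sets, one-gene probe sets alone, a midbrain covariate and leaving out mice. Replicate numbers showed no pairing of the samples (deviations of same-numbered mice correlated at -0.002 to 0.0089), though 3 pairs cannot exclude it. Figures used matplotlib 3.10.9 in Python 3.11.15.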

Additional observations from a re-analysis of the deposited data

Results flagged for a closer look

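In 3 of 38 genes examined, 1 tumour-bearing mouse lay far from the other 4; chance flags about 1 in 20 groups. Kcnab1 was highest in tumour-bearing mouse 1, at 8.09 against 7.67 to 7.75. Kcnc2 was lowest in tumour-bearing mouse 3, at 7.86 against 8.03 to 8.09. Kcnn3 was lowest in tumour-bearing mouse 4, at 8.23 against 8.36 to 8.39.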

How the results depend on the processing

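Up to 20 alternatives were run for each of the 38 genes examined (Kcng4 drops out where all 8 arrays must pass the filter). Of the differences with an unadjusted p under 0.05, 0 changed sign. In 23 genes the difference changed sign in at least 1 alternative. Among them were Kcnj8, at 0.17 in the main fit and -0.06 without control 1, and Kcnab3, at -0.16 and 0.04 with the midbrain covariate. In all, 1 gene value was called, Kcnip3 without tumour-bearing mouse 2. Members lower at the unadjusted p numbered 4, but 8 with array weights (12.1%, all genes 8.25%), 7 when only one-gene probe sets were tested (10.6%, all genes 7.84%) and 1 with the midbrain covariate (1.52%, all genes 2.00%), which left 0 higher in place of 3 and gave a median of 0.0146 in place of -0.0285. Members without overlap numbered 1 lower and 1 higher with the pooled arrays as samples (1.52% each; all genes 1.82% and 1.09%), and 6 (9.09%, all genes 7.06%) were higher without tumour-bearing mice 3 and 4 together. With 1 mouse left out at a time, 0 to 1 members passed the adjusted threshold, and the median was -0.0384 to -0.0056. At the unadjusted p, 4 to 9 members (6.06% to 13.6%) were lower, against 4.62% to 7.2% of all genes. At that p, 3 to 5 (4.55% to 7.58%) were higher, against 2.76% to 3.94%. Those lower without overlap numbered 4 to 12 (6.06% to 18.2%), against 6.0% to 12.0% of all genes. Those higher without overlap numbered 3 to 6 (4.55% to 9.09%), against 3.69% to 7.12%. The all-gene shares thus moved as well. The causes of these moves were not tested. With the replicate block, 4 members (6.06%) were lower and 2 (3.03%) higher at the unadjusted p, against 2.57% and 1.83% of all genes. The median over the members was -0.0038 in that fit. Same-numbered mice did not deviate together, so no pairing showed, though 3 pairs cannot exclude it. For Kcng4 and Kcnn4 some levels lay under the filter level, where a difference can be understated.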
